A study of Mus musculus with 2 samples.

Results

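The 40 genes described here are known for their roles in the cell cycle and were chosen as a fixed list of gene symbols. All 40 were among the 19169 genes measured in cells of regenerating mouse muscle. By known role, 12 serve DNA replication, 25 serve mitosis, Stmn1 takes microtubules apart, and Cdkn1a (p21) and Cdkn1c (p57) inhibit the kinases that drive the cycle. Cells were also counted by a rule: at least 3 of Mki67, Top2a, Cdk1, Birc5 and Ube2c had to be detected in a cell. This was met by 108 of 13432 cells. The cells came from the gastrocnemius, a hind-limb muscle, taken 14 days after cardiotoxin (CTX), which destroys muscle fibers and starts their regeneration. One library came from wild-type (WT) mice and the other from mice with a global knockout of Gsdme (GSDME-KO), whose product is a pore-forming protein of the gasdermin family. Both groups received CTX, so no uninjured muscle was compared. The mice were male and the WT mice of the study are given as C57BL/6J, while the background of the KO line is not given in the sources used here. There were 5 mice per genotype, and whether they were pooled is not stated.

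There was 1 library per genotype, so no difference between the genotypes has a replicate check and no test was made. Intervals are exact 95% intervals (for a difference of shares, the pair of exact intervals combined) and cover counting error only, and the unique molecular identifiers (UMIs, counted RNA molecules) of 1 cell are not independent of each other. Levels are given as CPM, the UMIs of a gene per 1000000 UMIs of the cells summed. Gsdme itself stood at 5.03 CPM (4.39 to 5.73) from 225 UMIs for WT and 4.65 CPM (4.08 to 5.29) from 237 UMIs for KO. The RNA of the targeted gene therefore did not separate the libraries (log2 ratio, -0.11; interval, -0.38 to 0.16). The allele's effect on 5′ RNA reads is not given in the sources used here, so groups are named below only as the libraries are labelled. The library labelled WT held 6354 cells with a median of 5740 UMIs, and the KO-labelled library held 7078 cells with a median of 5962.5 UMIs. The libraries shared 4 cell barcodes, none of them in a cell that met the rule.

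A dividing cell copies its DNA and then separates the copies. Replication needs a helicase (the Mcm2 to Mcm7 proteins), the sliding clamp Pcna and enzymes that supply nucleotides, whereas mitosis needs cyclin-dependent kinase 1 with its cyclins, a spindle, kinetochores and regulated protein destruction. Genes of both programs are switched off in resting cells by repressor complexes at their promoters. In muscle, the stem cells (MuSCs) are quiescent until injury, then proliferate, and leave the cell cycle as they become myocytes.

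The promoters of these genes are known to share short elements, and they are shown first because the members are grouped below into replication and mitosis genes. Windows of 300 bases, from 250 before to 50 after the start of the gene, were found in RefSeq (GRCm38.p6, the mm10 build) for 33 of the 40 genes. The letters searched, on both strands, were the cell-cycle homology region TTTGAA, the CCAAT box CCAAT, and TTCCCGC or TTGGCGC as E2F elements. The region TTTGAA was present in 16 of 21 mitosis genes (76.2%), in 1 of 11 replication genes (9.09%, Mcm2) and in 20.2% of the windows of 27025 genes. An E2F element was present in 3 of 21 mitosis genes (14.3%), in 6 of 11 replication genes (54.5%) and in 7.79% of all genes. CCAAT was present in 90.5% and 81.8% of the 2 groups and in 41.1% of all genes. TTTGAA and CCAAT stood together in 76.2% of the mitosis genes, 9.09% of the replication genes and 7.97% of all genes. A match is a description of letters, not of a bound site. The next 5 promoters, chosen after their motifs were known, show the contrast over the 200 bases before the start of the gene, written 5′ to 3′ on the gene's strand with the motifs in capitals. Their positions are Ccnb2, chr9:70421555-70421754, minus strand, then Cdk1, chr10:69352913-69353112, minus strand, then Ube2c, chr2:164769729-164769928, plus strand, then Mcm5, chr8:75109309-75109508, plus strand, then Mcm6, chr1:128359706-128359905, minus strand.
Ccnb2: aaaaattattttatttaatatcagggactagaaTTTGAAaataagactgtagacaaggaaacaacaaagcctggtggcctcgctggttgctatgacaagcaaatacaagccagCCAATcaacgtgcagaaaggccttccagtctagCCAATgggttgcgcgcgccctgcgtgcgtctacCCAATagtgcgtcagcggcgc
Cdk1: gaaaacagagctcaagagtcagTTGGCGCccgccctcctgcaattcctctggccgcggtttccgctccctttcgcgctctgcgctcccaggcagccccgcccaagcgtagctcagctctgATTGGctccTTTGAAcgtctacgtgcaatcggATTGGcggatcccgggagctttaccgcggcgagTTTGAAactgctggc
Ube2c: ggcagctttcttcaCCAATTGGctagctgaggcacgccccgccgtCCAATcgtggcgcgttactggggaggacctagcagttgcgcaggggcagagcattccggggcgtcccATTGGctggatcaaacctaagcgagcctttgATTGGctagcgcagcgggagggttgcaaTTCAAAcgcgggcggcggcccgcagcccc
Mcm5: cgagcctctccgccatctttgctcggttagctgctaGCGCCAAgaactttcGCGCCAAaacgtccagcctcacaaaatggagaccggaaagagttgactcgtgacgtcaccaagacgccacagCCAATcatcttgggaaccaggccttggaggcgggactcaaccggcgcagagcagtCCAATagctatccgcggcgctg
Mcm6: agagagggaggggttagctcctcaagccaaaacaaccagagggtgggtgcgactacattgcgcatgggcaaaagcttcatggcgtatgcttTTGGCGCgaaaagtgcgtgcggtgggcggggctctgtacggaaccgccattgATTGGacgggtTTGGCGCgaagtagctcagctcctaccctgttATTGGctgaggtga

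Ccnb2 (cyclin B2), Cdk1 and Ube2c, 3 mitosis genes, hold TTTGAA on 1 strand or the other together with CCAAT or its complement ATTGG, and Cdk1 also holds 1 E2F element, TTGGCGC. In Ube2c the first CCAAT and an ATTGG overlap and are capitalized as 1 run, and TTTGAA appears as its complement TTCAAA. Mcm5 and Mcm6, helicase genes, each hold 2 E2F elements and 2 CCAAT boxes and no TTTGAA. In Mcm5 the E2F element reads GCGCCAA, its complement.

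Cells meeting the 3-of-5 rule were rare in both libraries and fewer in the KO-labelled library. In the WT-labelled library they were 68 of 6354 cells, or 1.07% (0.832 to 1.35). In the KO-labelled library they were 40 of 7078, or 0.565% (0.404 to 0.769). The difference was -0.505 percentage points (-0.832 to -0.192). Cells with exactly 3 of the 5 genes made up much of it: 17 in the WT-labelled library (0.268%) against 2 in the KO-labelled library (0.0283%). Cells with 4 genes numbered 13 and 8, and cells with all 5 numbered 38 (0.598%) and 30 (0.424%). With at least 4 genes required, the shares were 0.803% and 0.537% and the interval of the difference included 0 (-0.562 to 0.0197). Most cells had none of the 5 genes (94.5% and 94.8%), and 4.01% and 4.37% had 1.

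Depth moved with the rule. The 108 cells had a median of 17093.5 UMIs, against 5797.5 in the other cells, and held 2.33% of all UMIs while being 0.804% of the cells. Within the rule, the medians were close between the libraries (16688.5 in WT and 17624 in KO). With every cell reduced by random draws to 1000 UMIs and shallower cells left out, 12 of 5668 cells met the rule in the WT-labelled library (0.212%) and 6 of 6445 in the KO-labelled library (0.0931%). That difference was -0.119 points (-0.287 to 0.0312). At 2000 UMIs it was -0.101 points (-0.361 to 0.147), with 22 of 5053 and 19 of 5684 cells. The direction was the same at both depths, but the difference was not detectable there. Doublet calls were 3.7% of the cells meeting the rule (4 cells) and 1.55% of the others. Without doublet calls the shares were 1.09% and 0.517%, a difference of -0.571 points (-0.899 to -0.258).

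By named cell type, the highest shares over both libraries were in T cell-like, dendritic cell-like, NK cell-like and MuSC-like cells (5.85%, 5.1%, 4.76% and 3.4%), with intervals that overlap. Types were named from clusters made without cell-cycle genes, so that the genes described here did not define them, and a name means only that a cluster resembles the type by its markers. In T cell-like cells, 7 of 83 cells in the WT-labelled library (8.43%) and 3 of 88 in the KO-labelled library (3.41%) met the rule. Dendritic cell-like cells had 9 of 125 (7.2%) and 4 of 130 (3.08%). MuSC-like cells had 13 of 254 (5.12%; 2.75 to 8.59) and 4 of 246 (1.63%; 0.445 to 4.11). Their difference of -3.49 points (-7.16 to -0.0617) was the 1 difference among the named types with an interval that left out 0. It rests on 17 cells, and with 23 types and clusters examined no adjustment was made. Depth differed between these cells, with medians of 6470.5 UMIs in the WT-labelled library and 5482.5 in the KO-labelled library. At 1000 UMIs the difference was -1.19 points (-3.91 to 1.34) and at 2000 UMIs -1.21 (-4.47 to 1.94). It was -3.1 points (-6.68 to 0.26) with 4 genes required, and -0.41 (-2.26 to 1.15) when cell-cycle genes were allowed into the clustering. NK cell-like cells had 2 of 34 and 1 of 29, B cell-like cells had 1 of 41 and 0 of 56, and lymphatic endothelial-like cells had 2 of 84 (2.38%) and 3 of 81 (3.7%).

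The abundant types had few such cells. In FAP-like cells (fibro-adipogenic progenitors, the muscle's resident mesenchymal cells), 2 of 1638 cells (0.122%) and 1 of 2129 (0.047%) met the rule. Endothelial-like cells had 7 of 1147 (0.61%) and 3 of 1125 (0.267%). Macrophage-like cells had 5 of 835 (0.599%) and 6 of 1016 (0.591%), a difference of -0.00825 points (-0.885 to 0.792). Tenocyte-like and Schwann cell-like cells each had 3 cells over both libraries. Among clusters left without a name, the one led by Lyz1, Retnla and Ccl6 had 6 of 114 (5.26%) and 5 of 146 (3.42%). A small one led by Sfrp5, Lypd2 and Cldn1 had 2 of 13 and 0 of 19. The one led by Rgs5, Gm13889 and Abcc9, which carries markers of pericytes and of endothelium, had 7 of 357 (1.96%) and 3 of 393 (0.763%). No cell met the rule among 429 mural-like cells, which allows a share of up to 0.699%, or among 96 mature muscle-like cells (up to 3.12%) and 58 neutrophil-like cells (up to 5.17%). Their median depths were 1731, 1429 and 3721.5 UMIs, shallower than the 17093.5 of cells meeting the rule.

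**Figure D1:**
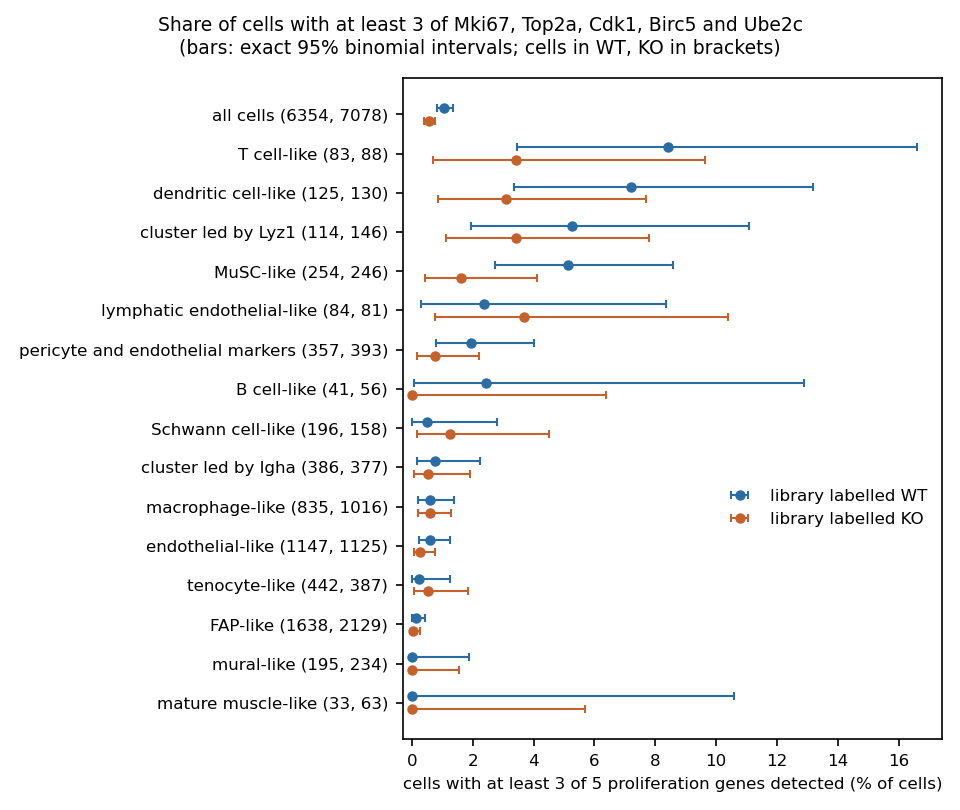
The share of cells with at least 3 of the 5 genes (percent, horizontal axis) is plotted for each cell type and named cluster (vertical axis, with the number of cells in the WT-labelled library, then KO); points are the libraries and bars exact 95% binomial intervals. T cell-like cells reach 8.43% in the WT-labelled library, and FAP-like cells stay at 0.122% and 0.047%.

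Over all cells, the presence of 1 gene marked more cells than the rule did. Mki67 is a gene of the rule and was read in most cells meeting it. These were 63 of 68 in the WT-labelled library and 39 of 40 in the KO-labelled library. Mki67, whose protein coats mitotic chromosomes, was read in 2.29% of all cells, and 33.1% of those cells met the rule. In dendritic cell-like cells it was read in 21.6% of cells (median depth, 9115 UMIs), but 23.6% of these met the rule. In MuSC-like cells it was read in 4.4% (5947.5 UMIs), and 72.7% of these met it. As a background, Mki67 was read in 0 of 96 mature muscle-like cells (median depth, 1429 UMIs) and in 1.72% of neutrophil-like cells (3721.5 UMIs), both of which are types that do not divide. Macrophage-like cells had Mki67 in 4.48% of cells (5305 UMIs), of which 12% met the rule.

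The 108 cells held most of the RNA of the mitosis genes and little of that of some replication genes. Among genes outside the rule, Hmmr (a spindle-associated protein) had 93.7% of its UMIs in these cells, Bub1 (a spindle checkpoint kinase) 93.1%, Ccna2 (cyclin A2) 86.1% and Cenpf (a kinetochore protein) 80.5%. Tk1 (thymidine kinase) had 78.9%. Other members were spread widely: Pcna had 4.56% of its UMIs in the 108 cells and was read in 57.9% of the other cells, and Mcm4 had 8.75%. Cenpa, the centromeric histone, had 26.9%, and Kif23, a kinesin of the midbody, had 30.8%. Cenpa was read in 39.6% of dendritic cell-like, 37.1% of B cell-like, 34.5% of T cell-like and 18.1% of macrophage-like cells, but also in 22.4% of neutrophil-like and in 0% of mature muscle-like cells. Cdkn1a and Cdkn1c were read in 67.0% and 45% of the cells that did not meet the rule.

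Among the named types, most replication genes were highest in lymphoid cells. Over both libraries, Mcm3, Mcm4, Mcm6 and Mcm7 (helicase subunits) were highest in T cell-like cells, at 74.0, 57.6, 101.0 and 51.7 CPM. Mcm2 and Mcm5 were highest in NK cell-like cells, at 53.3 and 49.9 CPM. Rrm2, the regulated subunit of ribonucleotide reductase, was highest in T cell-like cells (43.5 CPM), and Rrm1, its partner, in mural-like cells (76.9 CPM), which had no cell meeting the rule. Pcna ranged from 30.9 CPM in mature muscle-like cells to 446.1 in NK cell-like cells. Uhrf1, which maintains DNA methylation behind the fork, was highest in T cell-like cells (31.7 CPM) and was at 0 in 2 types. Tyms (thymidylate synthase) was highest in NK cell-like cells (36.6 CPM) and Tk1 in T cell-like cells (14.1 CPM). These orders rest on few cells, with 10 T cell-like and 3 NK cell-like cells meeting the rule. Those 10 held 26 UMIs of Uhrf1 against 1 in the other T cell-like cells, 32 against 5 of Rrm2 and 10 against 2 of Tk1. For Mcm4 the counts were 24 and 25, and for Mcm6 45 and 41. Outside cells meeting the rule, Rrm2 was at 7.27 CPM in T cell-like and 10.9 in MuSC-like cells, and Uhrf1 at 1.45 and 9.65.

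Among the mitosis genes, MuSC-like cells ranked first or second for many members. Ccna2 (31.3 CPM), Ccnb1 (18.3 CPM), Aurkb (14.7 CPM), Plk1 (3.1 CPM), Cdc20 (19.7 CPM), Cenpf (52.4 CPM), Tpx2 (25.7 CPM), Prc1 (59.5 CPM) and Kif20a (5.64 CPM) were highest there. These encode cyclins, mitotic kinases, an activator of the anaphase-promoting complex, a kinetochore protein and proteins that build the spindle and its midzone. Birc5 (47.0 CPM), Bub1 (8.22), Bub1b (14.1), Hmmr (15.3), Racgap1 (44.6), Ccnb2 (38.8), Kif11 (29.4), Kif23 (48.2) and Mki67 (96.3) were highest in T cell-like cells. Cdk1 (26.6), Nusap1 (30.0) and Top2a (106.5) were highest in NK cell-like cells, Aurka (7.29) and Cenpe (20.4) in lymphatic endothelial-like cells, and Ube2c (74.8) and Cenpa (168.3) in B cell-like cells. These orders rest on few cells: B cell-like, NK cell-like and T cell-like cells numbered 97, 63 and 171, with 1, 3 and 10 cells meeting the rule. Stmn1 was highest in Schwann cell-like cells, at 590.7 CPM (545.8 to 638.4) in the WT-labelled library and 617.5 CPM (568.4 to 669.7) in the KO-labelled library, although 3 of those 354 cells met the rule.

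In cells meeting the rule, 34 of the 35 members that the rule did not use were higher in value over both libraries, Cdkn1c being the exception, than in the other cells of the same types. For this, the level in other cells was weighted by the UMIs each type contributed to the 108 cells. Of all 14468 genes measured, 6462 were higher in the same comparison. With 10 CPM added to both levels, 32 of the 35 members were higher by 2-fold or more, against 2.61% of all genes. The 12 replication genes together stood at 1396.6 CPM against 363.6, a log2 ratio of 1.94 (1.81 in the WT-labelled library and 2.09 in the KO-labelled library). The 20 mitosis genes outside the rule stood at 2091.4 CPM against 74.4, a log2 ratio of 4.81 (4.71 and 4.94). Each of the 12 replication genes was higher, from 0.87 for Pcna to 6.11 for Tk1 with a median of 2.82. All 18 mitosis genes with at least 10 UMIs in other cells were higher, from 2.76 for Cenpa to 8.49 for Ccna2 with a median of 5.64. The remaining pair, Bub1 and Hmmr, had 81 of 87 and 178 of 190 UMIs in the 108 cells. These are descriptions of cells picked for 5 genes of the same program, and their depth differs as given above. With all cells thinned to 1000 UMIs the log2 ratios were 2.14 and 5.04.

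Stmn1 was also higher, at 1282.9 CPM against 71.1 (log2 ratio, 4.17). The inhibitors showed a different pattern of values. Cdkn1a was at 772.0 CPM against 729.5 (log2 ratio, 0.08), with 953.9 against 779.6 in the WT-labelled library and 503.8 against 686.4 in the KO-labelled library. Cdkn1c was at 179.3 CPM against 304.8 (log2 ratio, -0.77), lower in both libraries. In endothelial-like cells alone, Cdkn1c was at 84.3 CPM in the 10 cells meeting the rule and 493.6 in the others (-2.55). In MuSC-like cells the values were 538.7 and 697.5 CPM (-0.37).

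Other cell-cycle genes were drawn from a wider list of 190 genes, with 10 CPM added to both levels. All 44 measured mitotic regulators, 41 replication factors and 66 genes of a mixed group were higher in cells meeting the rule, with median log2 ratios of 1.79, 1.28 and 1.98. The mixed group was listed as chromatin proteins made in cycling cells, but it also holds tubulins, kinesins and other proteins. Its genes were listed as made in cycling cells, so their direction is close to their definition. By more than 2-fold, 35, 30 and 58 of them were higher, against 377 of 14468 genes overall (2.61%), whose median was -0.03. In the mixed group, Pclaf, a partner of Pcna, reached 4.62 and the linker histone H1f5 4.57. The 8 G1 cyclins and kinases had a median of 0.59. Ccne1 was at 1.66 and Cdk4 at 1.21, and Ccnd2 alone was lower (-0.69). Of the 10 pocket proteins and E2F factors 8 were higher (median, 1.04), with E2f8 at 1.79 and Rbl2 at -0.24. Of the 5 other inhibitors 4 were higher, led by Cdkn2c (p18) at 1.83, whereas Cdkn1b (p27) was at -0.25. The 11 genes of p53 and growth arrest had a median of -0.66. Of these 3 were higher, and Gadd45b (-1.27) and Gas1 (-1.01) were lower by more than 2-fold.

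The 25 mitosis genes gave more UMIs than the 12 replication genes in 88 of the 108 cells, 54 of 68 in the WT-labelled library and 34 of 40 in the KO-labelled library. All 5 genes of the rule are in the mitosis group, so that count is partly fixed by the rule. Without those 5 genes it was 67 cells (37 and 30), and the UMIs over all 108 cells were 4654 of mitosis genes and 3108 of replication genes. MuSC-like cells then held 1441 mitosis and 536 replication UMIs, with more of mitosis genes in 15 of 17 cells. Endothelial-like cells held 542 and 301, and dendritic cell-like cells 299 and 204. In T cell-like cells the count turned with the rule genes left out, to 254 mitosis and 423 replication UMIs. The same held for the cluster led by Lyz1 (236 and 353) and for macrophage-like cells (225 and 238). With 10 to 17 cells in each of these, the values carry no error over animals.

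**Figure D2:**
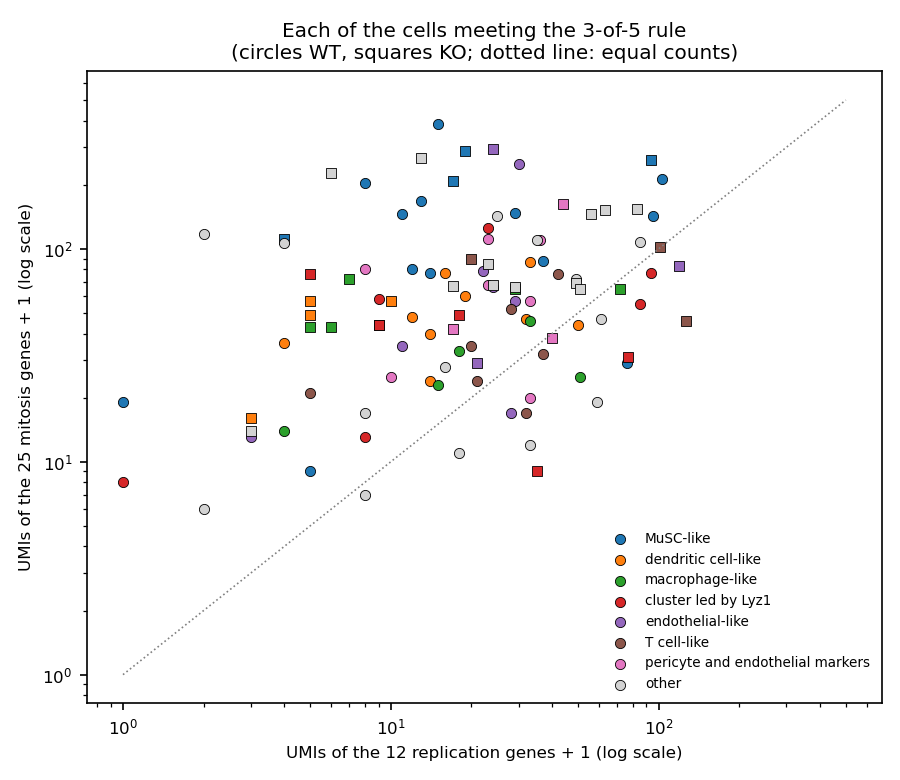
Each point is 1 of the 108 cells meeting the rule, with UMIs of the 12 replication genes (horizontal axis) against UMIs of the 25 mitosis genes (vertical axis), both plus 1 on log scales, with circles for the WT-labelled library and squares for KO. Above the dotted line of equal counts lie 88 cells.

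When cell-cycle genes were allowed into the clustering, 83 of the 108 cells (52 in the WT-labelled library and 31 in the KO-labelled library) gathered in 1 cluster of 92 cells led by Top2a, Hist1h2ap, Mki67 and Ube2c. The cells of that cluster came from 18 types and clusters of the first clustering. MuSC-like cells gave 16, dendritic cell-like 12, macrophage-like 10 and endothelial-like 9. Levels per type therefore depend on where such cells are placed.

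Between the libraries, the sums over all cells were lower in the KO-labelled library for both mitosis and replication genes. Over all cells, the mitosis genes summed to 152.6 CPM (149.0 to 156.2) in the WT-labelled library and 122.2 CPM (119.2 to 125.3) in the KO-labelled library, a log2 ratio of -0.32 (-0.37 to -0.27). Without the cells meeting the rule the ratio was -0.07 (-0.16 to 0.01). Those cells held 67.8% and 61.2% of the mitosis UMIs. The replication genes summed to 368.7 CPM (363.1 to 374.3) and 301.6 CPM (296.8 to 306.4), a log2 ratio of -0.29, and -0.27 (-0.30 to -0.24) without those cells. Most of this sum was Pcna, at 249.7 of 338.7 CPM and 195.3 of 280.6 CPM without those cells. Of the other members there, Mcm4, Rrm1 and Tyms were higher (0.49, 0.15 and 0.15), and the rest were lower or near level. The sum therefore does not describe the replication genes as a set, and the sums by type carry Pcna as well. By type, the replication sum was lower in value in 10 of 13 types with at least 50 UMIs (intervals below 0 in 9) and higher in 2 (above 0 in 1). The mitosis sum had no common direction, being higher in 5 of 12 types, all with intervals above 0, and lower in 7, with intervals below 0 in 5 (median log2 ratio, -0.06). The sums alone cannot tell fewer cells of a kind from less RNA per cell. Per cell, the 68 and 40 cells meeting the rule had median mitosis levels of 3037.6 CPM in the WT-labelled library and 3756.4 CPM in the KO-labelled library. These medians include the 5 genes that picked the cells, and cells with exactly 3 of those genes numbered 17 and 2. They therefore cannot tell whether RNA per cell differed. What lowered the sums was not tested.

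A gene was counted as past the fold when its CPM differed by 1.5-fold or more and it had at least 50 UMIs over both libraries. Of the 40 members, 1 was higher in the KO-labelled library (Ccnb1) and 5 were lower (Uhrf1, Aurka, Cdc20, Mki67 and Stmn1). Of all 14468 genes measured, 4.42% were higher and 4.37% lower. The members' median log2 ratio was -0.37, against -0.01 for all genes. With the mean over cells in place of the sum, which gives shallow cells the same weight, 15 members were lower. No share of all genes is given at that setting. Mki67 was at 16.3 CPM (15.2 to 17.6) and 10.7 CPM (9.86 to 11.7), a log2 ratio of -0.60. Outside the cells meeting the rule its ratio was 0.24, with 3.11 and 3.68 CPM. Stmn1 was at 96.1 and 59.6 CPM (-0.69), and at 58.2 and 39.1 CPM outside those cells (-0.57). Aurka, a kinase of the centrosome, had 80 UMIs in the WT-labelled library and 45 in the KO-labelled library (-1.02). Ccnb1 (cyclin B1) was higher outside the cells meeting the rule: 21 UMIs in 12 cells in the WT-labelled library against 81 UMIs in 28 cells in the KO-labelled library, up to 9 UMIs in 1 cell.

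**Figure D3:**
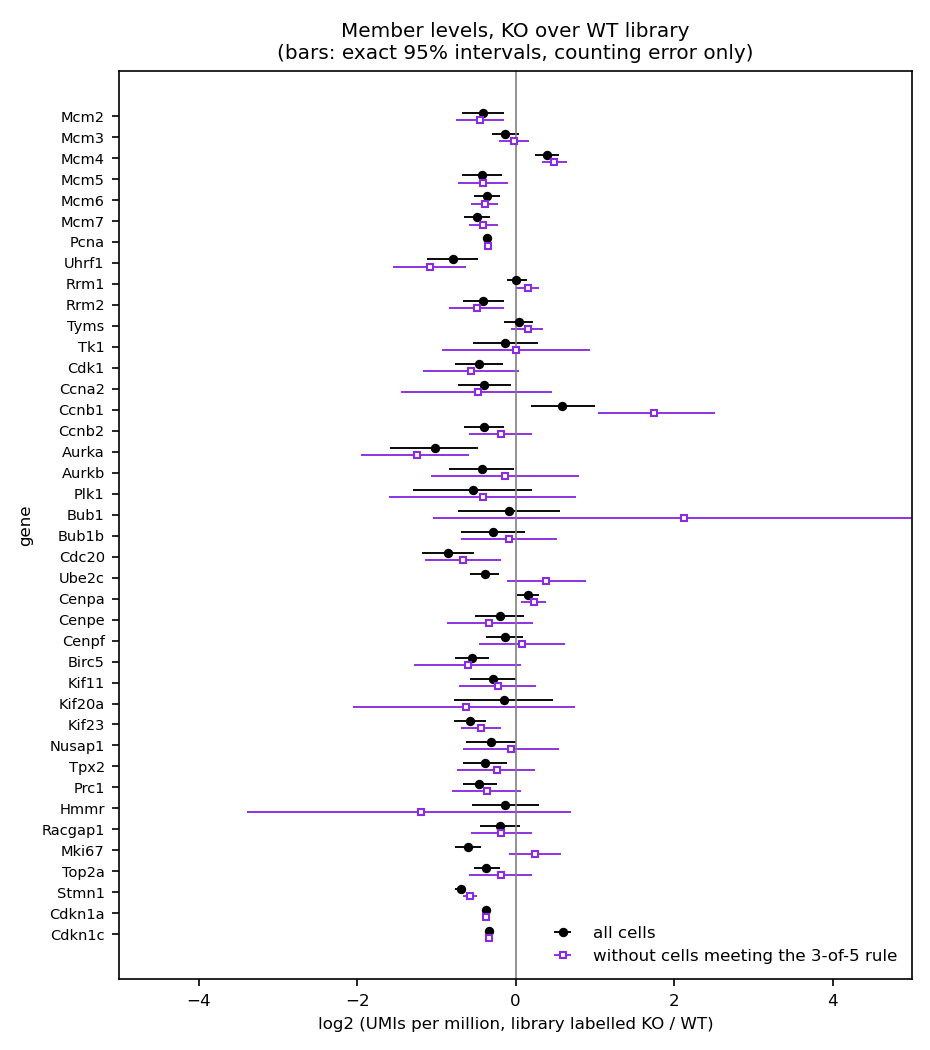
The log2 ratio of CPM in the KO-labelled library over the WT-labelled library (horizontal axis) is plotted for each of the 40 genes (vertical axis), with all cells and without cells meeting the rule; bars are exact 95% intervals, and the interval of Bub1 without those cells runs past the axis. Mki67 lies at -0.60 with all cells and at 0.24 without those cells, whereas Pcna lies at -0.36 and -0.35.

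Within the library comparison, 2 replication members moved in opposite directions across types. Pcna was at 255.7 CPM (251.0 to 260.4) in the WT-labelled library and 199.5 CPM (195.6 to 203.4) in the KO-labelled library (log2 ratio, -0.36). It was lower in value in 13 of 13 types with at least 50 UMIs, with intervals below 0 in 8. In FAP-like cells it was at 138.5 and 110.7 CPM (-0.32; -0.42 to -0.23), and in endothelial-like cells at 427.0 and 359.4 CPM (-0.25; -0.33 to -0.17). In MuSC-like cells it was at 231.2 and 229.6 CPM (-0.01; -0.22 to 0.19). Mcm4 was at 13.2 CPM (12.2 to 14.4) and 17.5 CPM (16.4 to 18.7), a log2 ratio of 0.40. It was higher in value in 6 of 6 types, with intervals above 0 in 3. These were FAP-like cells (13.8 and 17.9 CPM), endothelial-like cells (10.9 and 15.4 CPM) and Schwann cell-like cells (16.6 and 35 CPM). The other helicase members did not share its direction over all cells: Mcm2, Mcm5, Mcm6 and Mcm7 had ratios of -0.41, -0.43, -0.36 and -0.49, and Mcm3 -0.13.

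In FAP-like cells the mitosis genes stood at 43.8 CPM in the WT-labelled library and 20.6 CPM in the KO-labelled library (-1.09; -1.28 to -0.89). One cell in the WT-labelled library held 142 of its 557 mitosis UMIs (25.5%), and without the 3 cells meeting the rule the ratio was -0.29 (-0.51 to -0.06). Of 21 members measured, 0 were higher and 11 lower in the KO-labelled library, against 3.67% and 6.63% of 11480 genes. The 11 included Mcm2, Mcm3, Mcm5 and Mcm6, and also Birc5, a subunit of the chromosomal passenger complex (-1.81), Prc1 (-1.90) and Top2a (-2.70). Birc5, Top2a and Ube2c among the 11 are genes of the rule, and 2 cells of the WT-labelled library and 1 of the KO-labelled library carry much of these values. Without the 3 cells, Birc5 had 18 and 14 UMIs (-0.88; -2.0 to 0.21), Prc1 19 and 16 (-0.76; -1.82 to 0.27), Top2a 17 and 13 (-0.90; -2.07 to 0.23) and Ube2c 19 and 27 (-0.01), all under 50 UMIs. Mcm6 was then at 12.8 and 6.79 CPM, a log2 ratio of -0.91 with an interval of -1.26 to -0.57. Mcm2, Mcm5 and Rrm2, also among the 11, stayed lower by 1.5-fold or more without the 3 cells (-0.83, -0.91 and -0.96). Mcm3, Ccnb2 and Stmn1, the others of the 11, were no longer past the fold (-0.52, -0.55 and -0.37), and their intervals included 0. The count of 11 therefore rests in part on the 3 cells. In endothelial-like cells, 0 of 27 were higher and 2 lower (Cdc20 and Ube2c), against 4.31% and 3.85% of 10099 genes. Ube2c, the ubiquitin-conjugating enzyme of the anaphase-promoting complex, was at 10.2 and 4.43 CPM there. It is a gene of the rule, and without the 10 cells meeting the rule it was at 0.554 and 0.58 CPM (0.06), and Cdc20 at 1.94 and 2.61 CPM (0.43; -0.66 to 1.55). The endothelial mitosis sum was 113.5 CPM in the WT-labelled library and 101.2 CPM in the KO-labelled library (-0.17), of which a single cell in each held 30.0% and 41.2%.

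In macrophage-like cells, Ube2c (3.27 and 6.76 CPM), Mki67 (12.4 and 20.3 CPM) and Top2a (5.02 and 13 CPM) were higher in the KO-labelled library, and all 3 are genes of the rule. Without the 11 cells meeting the rule, Ube2c was at 1.55 and 1.26 CPM (-0.29, with 7 UMIs in each library), Top2a at 1.99 and 3.43 CPM (0.79; -0.43 to 2.11) and Mki67 at 6.41 and 13.4 CPM (1.06; 0.42 to 1.73). Kif23 (23.3 and 11 CPM), Mcm2 (8.51 and 5.52), Mcm7 (9.17 and 5.87) and Cdkn1c (51.5 and 25.5) were lower. As a mean over cells the log2 ratio of Cdkn1c was -2.02, against -1.02 from the sums. That is 3 and 4 of 18 members, against 4.67% and 6.83% of 8957 genes. The mitosis sum was 125.9 CPM (115.8 to 136.6) and 146.0 CPM (136.2 to 156.3), a ratio of 0.21, and without the 11 cells meeting the rule it was -0.13 (-0.32 to 0.06). Whether macrophages differ from FAP-like or MuSC-like cells in this was not tested. In dendritic cell-like cells, the mitosis sum was 582.0 and 316.6 CPM (-0.88), and without the 13 cells meeting the rule -0.25 (-0.54 to 0.05). Their replication sum was 381.5 and 163.5 CPM (-1.22), and -0.69 (-0.98 to -0.40) without those cells. Stmn1 was at 280.3 and 59.7 CPM in these cells (-2.23). The Schwann cell-like and lymphatic endothelial-like sums were higher in the KO-labelled library (1.62 and 1.08), with 3 and 5 cells meeting the rule, and -0.26 and -0.24 without them.

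In MuSC-like cells the mitosis genes stood at 866.1 CPM (826.4 to 907.1) and 652.3 CPM (611.8 to 694.8), a log2 ratio of -0.41 (-0.52 to -0.30). The 13 and 4 cells meeting the rule held 94.4% and 89.8% of these UMIs. Without them the sums were 58.9 and 70.2 CPM (0.25; -0.16 to 0.67). The replication sum was 524.3 and 447.7 CPM (-0.23), and -0.06 (-0.23 to 0.11) without those cells. Of 32 members measured, 0 were higher and 15 lower in the KO-labelled library, against 13.7% and 11.8% of 6842 genes. The lower ones were 3 replication genes (Mcm7, Uhrf1 and Rrm1), 10 mitosis genes (Cdk1, Ccnb2, Aurkb, Cdc20, Ube2c, Cenpa, Cenpe, Birc5, Tpx2 and Racgap1), Stmn1 and Cdkn1c. Cdk1, Ube2c and Birc5 are genes of the rule, and several mitosis members had 50 UMIs only through the 17 cells meeting it. Those cells held 254 of 263 UMIs of Ube2c, 161 of 163 of Birc5, 72 of 76 of Cdk1 and 50 of 52 of Aurkb, so the count of 15 says little about the other MuSC-like cells. Clustered with cell-cycle genes, 2 members were lower, a count without a share of all genes beside it. Cdc20 was at 27.5 and 8.81 CPM (-1.64; -2.64 to -0.76), with 61 UMIs in the 17 cells meeting the rule and 9 in the others. Without the 17 cells it had 7 and 2 UMIs (-1.51; -4.81 to 0.88). Top2a was at 102.8 and 107.0 CPM (0.06; -0.25 to 0.36). Stmn1 was at 308.5 and 145.6 CPM, and at 78.8 and 39.4 CPM without the cells meeting the rule.

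In MuSC-like cells, Cdkn1c, which is known to rise as myoblasts leave the cell cycle, was at 925.9 CPM (884.9 to 968.3; 1918 UMIs in 63 cells) in the WT-labelled library and 329.9 CPM (301.2 to 360.5; 487 UMIs in 39 cells) in the KO-labelled library, a log2 ratio of -1.49 (-1.64 to -1.34). The ratio was -2.11 as a mean over cells and -1.26 (-1.41 to -1.11) without doublet calls. Cells with Myog, the transcription factor of differentiating myocytes, held 92.0% of these UMIs. They numbered 15 in the WT-labelled library and 4 in the KO-labelled library, 3.8% of the MuSC-like cells. Among them Cdkn1c was at 4977.5 and 5568.5 CPM (0.16; 0.01 to 0.31), and a single cell in each library held 28.5% and 69.8% of it. In the cells without Myog it was at 81.7 and 37.9 CPM (-1.11; -1.59 to -0.64). Pax7, which marks the stem cell state, was at 145.3 and 283.1 CPM, and Myod1, of activated myoblasts, at 313.8 and 597.4 CPM. In mature muscle-like cells Cdkn1c was at 2102.2 and 110.8 CPM, from 33 and 63 cells. An unnamed cluster led by Apod, Myog and Gpc3 (245 and 244 cells, median depth 889 UMIs) ran the other way. There Cdkn1c was at 404.0 and 981.0 CPM, from 152 and 354 UMIs (1.28; 1.0 to 1.56), and the ratio was 0.5 as a mean over cells.

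Cdkn1a, a target of p53 that halts the cycle after DNA damage, was lower in the KO-labelled library in most types. Over all cells it was at 819.1 CPM (810.7 to 827.5) and 629.7 CPM (622.9 to 636.7), a log2 ratio of -0.38 (-0.40 to -0.36). It was lower in value in 10 of 12 types with at least 50 UMIs, with intervals below 0 in 9. Its level was highest in endothelial-like cells, at 1407.0 and 1108.1 CPM (-0.34). In FAP-like cells it was at 463.4 and 319.4 CPM (-0.54), and in MuSC-like cells at 729.9 and 518.9 CPM (-0.49). In macrophage-like cells it was at 1054.2 and 1033.0 CPM (-0.03; -0.08 to 0.03) and in dendritic cell-like cells at 614.8 and 622.8 CPM (0.02; -0.13 to 0.17). Cdkn1c over all cells was at 356.5 and 282.2 CPM (-0.34). Of 10 types measured, 5 were higher, with intervals above 0 in 0, and 5 were lower, with intervals below 0 in all 5.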

How the data were processed

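Muscle cells were captured with a 10x Genomics 5′ kit. Per the submitters' processing notes, the authors used Cell Ranger 2.1.1 and the mm10 build, and per the study's methods Seurat and DoubletFinder were used, and cells over 10% mitochondrial RNA were dropped. They deposited, for 13432 cells, the natural log of 1 plus UMIs scaled to 10000 per cell. The log was undone and whole UMIs were recovered within 0.256 UMI for all 29528482 values above 0 (95688527 UMIs). The step was tested on simulated data and returned 500 of 500 cells.

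The members and lists were chosen with earlier results of these data known. Cells were clustered without cell-cycle genes (2000 variable genes, 30 principal components, 20 neighbors, the steps of Harmony rewritten in numpy, resolution 0.8, seed 1). Naming rules were partly set after clusters had been seen, and 8 of 29 clusters (18.5% of cells) kept no name. Levels are CPM of summed UMIs with exact Poisson intervals, shares carry Clopper-Pearson intervals, and ratios the exact binomial interval of the share of UMIs. The difference of 2 shares combines their intervals. A share or level of 0 is given with the limit of 3 counts. All 40 members are named. The rule for further genes (types with at least 10 or 20 cells meeting the rule per library or over both) named none. Scrublet doublet calls (1.59% and 1.54%) were left out only as an alternative. Clusters used igraph 0.11.9 and scikit-learn 1.9.0, doublet calls scanpy 1.11.5, intervals scipy 1.17.1, and figures matplotlib 3.10.9, under Python 3.11.15 with numpy 2.4.6.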

Additional observations from a re-analysis of the deposited data

How the results depend on the processing

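Of 307 alternatives over 43 results, 243 gave values within counting error or 1.5 times the count, 58 moved and 6 reversed. Shares of cells meeting the rule became 1.5% (WT) and 0.834% (KO) with 2 of 5 genes, 0.803% (WT) with 4, 0.212% and 0.0931% at 1000 UMIs, and 0.435% and 0.334% at 2000 UMIs, where the differences were -0.119 and -0.101 points. Ratios over other cells became 2.14 (replication) and 5.04 (mitosis) at 1000 UMIs, and the mitosis ratio 4.76 without doublet calls.

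Log2 ratios of the mitosis genes, KO over WT, moved under several settings. Without the cells meeting the rule the values were -0.07 (all cells), -0.29 (FAP), -0.01 (endothelial), -0.13 (macrophage, reversed) and 0.25 (MuSC, reversed), and the replication value in MuSC was -0.06. Clustered with cell-cycle genes, mitosis values were -0.15 (FAP), -0.25 (macrophage, reversed) and 0.18 (MuSC, reversed), and the replication value in MuSC -0.04. As means over cells, mitosis values were -0.40 (all cells), -0.74 (FAP), -0.37 (endothelial), -0.22 (macrophage, reversed) and -0.58 (MuSC), the replication value in FAP -0.21, and Cdkn1a in all cells -0.35. At resolution 0.4 the endothelial mitosis value was 0.06 (reversed), and without doublet calls that of all cells -0.44. Beyond these constructions the cause was not tested.

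Members past the fold, higher and lower in KO, moved as follows. At 2-fold there were 0 higher and 1 lower in all cells, 6 lower in FAP, 1 in endothelial, 2 in macrophage and 6 in MuSC. As means over cells there were 15 lower in all cells, 2 higher and 8 lower in endothelial, 1 higher and 7 lower in macrophage, and 2 higher in MuSC. Clustered with cell-cycle genes there were 2 higher and 4 lower in FAP, 0 lower in endothelial, 1 higher in macrophage and 2 lower in MuSC. At 20 UMIs there were 19 lower in FAP, 1 higher in endothelial and 8 higher in macrophage. With no filter there were 1 higher and 28 lower in FAP, 3 higher in endothelial, and 14 higher and 7 lower in macrophage. At resolution 0.4, 1 was higher in endothelial. The shares of all genes given above hold only for 1.5-fold on sums with at least 50 UMIs. These counts therefore have no share of all genes beside them and are not read as results about the members.

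No paired analysis was possible because each genotype has 1 library, and no library was left out for the same reason. Depth limits the low members: Bub1 had 87 UMIs and Plk1 66 in all cells.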

Other observations

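The genes outside all lists with the highest ratio in cells meeting the rule over other cells of the same types (10 CPM added, at least 50 UMIs in those cells) were named after their values were seen. They were H2ac8, a histone gene, at 244.9 CPM against 4.05 (log2 ratio, 4.18), Aspm, a spindle pole protein (2.95), Selenoh (2.83), H4c4, another histone gene (2.78), Knstrn, a kinetochore protein (2.78), H2ac4 (2.67), Diaph3 (2.64), Incenp of the chromosomal passenger complex (2.63), Cip2a (2.60) and Mxd3 (2.41). H2ac8 was read in 69 of the 108 cells and Selenoh in 98. Of 6002 such genes, 180 were higher and 78 lower by more than 2-fold. Among the lowest were Igfbp5, which binds insulin-like growth factors (74.6 against 575.3 CPM; -2.79), Gpx3 (-2.72), Chodl (-2.22) and Serping1 (-2.11).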
